A study of Mus musculus with 4 samples.

Results

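CTCF binding sites at transcription starts were examined in mouse liver at the beginning of the light phase (ZT0, lights on) and at the beginning of the dark phase (ZT12, lights off). A site belonged to the set when the midpoint of its ChIP-seq peak lay within 1 kb of the start of any transcript of the GENCODE annotation of the mm9 genome, on the autosomes. Of 16912 peaks listed at both time points together, 3411 met the rule. The lists hold far fewer sites than the study's text reports for CTCF, so every share below refers to the listed sites only. These were 2036 of 10038 autosomal sites at ZT0 and 1375 of 6756 at ZT12.

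The livers came from male C57BL/6 mice, wild type and labelled as 8 weeks old, held for 2 weeks in cycles of 12 h light and 12 h dark with food ad libitum. Chromatin bound by CTCF was immunoprecipitated from 2 biological replicates per time point and sequenced. The authors deposited a single list of peak positions per time point, made from both replicates after a search for CTCF motifs with the program FIMO. Each peak is given by its coordinates alone, without score, strand, replicate or sequencing depth, which leaves no measure of how replicates vary. A longer list at ZT0 cannot be told apart from deeper sequencing or stronger enrichment at ZT0.

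CTCF is a zinc finger protein that reads a long, asymmetric DNA sequence, and it stops the cohesin ring as cohesin extrudes chromatin loops, so that the direction of the motif sets the side on which a loop is held. It also binds close to the starts of many genes, where promoters of broadly expressed genes commonly lie in CpG islands, GC-rich stretches that escape DNA methylation. In liver, a large set of genes is transcribed with a daily rhythm under the circadian clock, and the lists stand for the turning points between activity and rest in a nocturnal animal.

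The sites at starts made up 20.3% of the autosomal ZT0 list (95% Wilson interval 19.5 to 21.1) and 20.4% of the ZT12 list (19.4 to 21.3). Windows of 1 kb on each side of the 82148 distinct autosomal starts cover 99.7 Mb, which is 4.03% of the autosomal sequence. The share of sites was thus 5.03-fold the share of sequence at ZT0 and 5.04-fold at ZT12, nearly the same at both time points. All intervals given here cover counting error only, because sites are not animals and neighbouring sites are not independent.

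Within the windows the sites crowded towards the start and lay mostly upstream of it. The median distance from midpoint to nearest start was 177 bp at ZT0 (95% interval 161 to 196) and 168 bp at ZT12. All starts within 1 kb lay on a single strand for 1827 ZT0 sites and 1228 ZT12 sites, and these sites gave the side. Upstream midpoints made up 64.9% at ZT0 (62.6 to 67.0) and 69.1% at ZT12 (66.4 to 71.6). The first 100 bp upstream held 414 ZT0 sites, or 22.7%, and 302 ZT12 sites, or 24.6%. Across the start, the first 100 bp downstream held 175 ZT0 sites (9.58%) and 104 ZT12 sites (8.47%). Density at ZT0 fell to 217 sites per 100 bp between 100 and 250 bp upstream, to 79.6 between 250 and 500 bp, and to 49.2 between 750 and 1000 bp. Downstream it fell from 175 sites per 100 bp next to the start to 38.4 between 750 and 1000 bp. The profile therefore rose towards the start from both sides, with its peak directly upstream.

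By the annotation, 854 ZT0 midpoints (41.9%) lay between genes, 591 (29.0%) in introns, 274 (13.5%) in untranslated exon sequence, 167 (8.20%) in coding exons and 150 (7.37%) in exons of non-coding transcripts. At ZT12, 615 midpoints (44.7%) lay between genes and 396 (28.8%) in introns. A protein-coding gene had a start within 1 kb of 1836 ZT0 sites (90.2%) and of 1226 ZT12 sites (89.2%). The first, 5′-most start of a gene was within reach of 1578 ZT0 sites (77.5%) and 1080 ZT12 sites (78.5%), and the other sites lay at internal starts only. Starts of more than 1 gene were within 1 kb of 239 ZT0 sites and 166 ZT12 sites. Most sites were thus at the first start of a single protein-coding gene.

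At the edge of the rule, the ZT0 midpoints nearest to 1 kb inside it lay 997 bp downstream of a Gm17394 start, 996 bp downstream of a 2810428I15Rik start and 995 bp downstream of a start of Baz2a, which encodes a silencing factor of ribosomal DNA. The nearest outside lay 1001 bp from a start of Marcksl1, 1003 bp from Mlph and 1004 bp from Tecpr1, all downstream. At ZT12 the nearest inside were at Dnajc11 and Tnnt1 (both 997 bp away), and the nearest outside at Gm3739 (1012 bp), Gm17241 (1012 bp) and Necap2 (1016 bp).

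The comparison of ZT0 with ZT12 asked which of these sites are listed at both times of day, with an overlap of at least 1 bp counted as shared. At ZT0, 1270 of the 2036 sites at starts (62.4%, 60.3 to 64.5) overlapped a ZT12 site, beside 56.4% of all autosomal ZT0 sites. At ZT12, 1273 of the 1375 sites at starts (92.6%, 91.1 to 93.9) overlapped a ZT0 site, beside 83.9% of all autosomal ZT12 sites. Sites away from starts were shared less often, 54.9% of 8002 at ZT0 and 81.6% of 5381 at ZT12. The difference, starts minus elsewhere, was 7.52 percentage points at ZT0 (95% Newcombe interval 5.13 to 9.86) and 10.9 at ZT12 (9.13 to 12.6). Partners that lay beyond 1 kb of a start accounted for 10 of the shared sites in each list, and 3 ZT0 sites overlapped more than 1 ZT12 site. The 766 remaining ZT0 sites and 102 remaining ZT12 sites were each in a single list.

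Peak width and base composition differed between sites at starts and sites elsewhere, so the same difference was computed within classes of each. Sites at starts had a median width of 350 bp at ZT0 (344 to 355), against 305 bp elsewhere, and of 308 bp at ZT12, against 280 bp. Within 4 classes of width, combined with Mantel-Haenszel weights, the ZT0 difference was -0.0873 points (-2.29 to 2.12) and the ZT12 difference 8.81 points (7.11 to 10.5). Within 5 classes of GC content the ZT0 difference was -0.264 points (-2.92 to 2.39) and the ZT12 difference 2.55 points (0.606 to 4.50). Within classes of both, an adjustment chosen after seeing the data, they were -2.75 points (-5.18 to -0.322) at ZT0 and 2.08 points (0.175 to 3.99) at ZT12. Averaged over classes, the ZT0 excess of shared sites at starts was thus no longer resolved within width or within GC classes and turned negative within both, whereas the ZT12 excess was smaller but of the same sign. With selection by width the ZT12 difference was 23.1 points among sites wider than the median and 21.4 points against a ZT0 list reduced to its widest sites. In both settings a ZT12 site counted as shared only if its ZT0 partner passed the width filter. Of ZT0 sites, 64.4% at starts and 46.0% elsewhere were wider than the median. The filter thus keeps more partners at starts, and these larger values are no added support. The ZT0 differences in these settings were 9.97 points (6.82 to 13.1) and 7.64 points (5.05 to 10.1).

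Sharing among ZT0 sites at starts varied widely with width. In the narrowest class, up to 260 bp, 22.3% of 346 sites at starts were shared, against 33.4% of sites elsewhere. In the widest, above 380 bp, 86.7% of 781 sites at starts were shared, against 80.3% elsewhere. The classes between them gave 47.0% against 49.4% and 63.8% against 62.5%. The average over width classes therefore combines a deficit among narrow sites at starts with an excess among wide ones. At ZT12 the range over width classes was smaller, from 85.2% of 264 narrow sites at starts to 98.1% of 468 wide ones, with 70.7% and 93.7% elsewhere. Sharing rose with width at starts and elsewhere alike, at both time points.

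Sharing also changed with the distance to the start. At ZT0 it was 67.5% of 369 sites up to 50 bp away, 66.8% between 50 and 100 bp, 64.6% between 100 and 250 bp, 60.2% between 250 and 500 bp, 57.2% between 500 and 750 bp and 52.4% of 225 sites between 750 and 1000 bp. Beyond the window it was 60.1% between 1 and 2 kb, 56.2% out to 5 kb and 50.2% beyond 20 kb. At ZT12 it went from 94.2% up to 50 bp to 84.1% between 750 and 1000 bp, and to 78.6% beyond 20 kb. Median width fell along the same path, from 368 bp to 313 bp at ZT0, and so did the median GC content, from 65.5% to 55.0%. Their part in the change with distance was not tested.

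Sites upstream of a start were shared more often than sites downstream. At ZT0 the shares were 66.2% of 1185 upstream and 53.9% of 642 downstream, a difference of 12.3 points (7.56 to 16.9). The ZT12 shares were 94.0% of 848 and 87.6% of 380, a difference of 6.35 points (2.90 to 10.3). Sites with starts on both strands within 1 kb, as at divergent promoters, numbered 209 at ZT0 and 147 at ZT12. They were shared in 67.0% and 97.3% of cases, which is 5.14 points (-1.85 to 11.6) and 5.26 points (0.963 to 7.60) above sites with starts on a single strand. At ZT0 that interval includes zero.

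A protein-coding start went with sharing at ZT12. Sites with a protein-coding start were shared in 93.7% of 1226 cases at ZT12, against 83.2% of 149 sites without one, a difference of 10.5 points (5.14 to 17.4). At ZT0 the shares were 62.4% and 62.0%, with a difference of 0.418 points (-6.40 to 7.65). Whether the differences at the time points differ from each other was not tested. First starts and internal starts gave 63.1% and 60.0% at ZT0 and 92.9% and 91.5% at ZT12, and both intervals of the difference include zero. By position, the ZT0 share ran from 67.0% between genes (63.8 to 70.1) to 56.0% in exons of non-coding transcripts (48.0 to 63.7), with 61.3% in untranslated exons, 59.2% in introns and 57.5% in coding exons.

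Across the 19 autosomes, ZT0 sites at starts ranged from 1.72 per 100 starts on chromosome 2 to 3.82 on chromosome 19. At ZT12 they ranged from 1.22 on chromosomes 2 and 16 to 2.74 on chromosome 19. Chromosome 19 was thus the densest in both lists. The shared percentage at ZT0 ran from 51.6% of 62 sites on chromosome 12 (39.4 to 63.6) to 81.6% of 38 sites on chromosome 18 (66.6 to 90.8). At ZT12 it ran from 86.8% of 53 on chromosome 14 to 43 of 43 on chromosome 15. Intervals of most chromosomes overlapped one another.

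Shared sites that paired one to one numbered 1267 at starts and 4378 elsewhere. The ZT12 peak was the narrower of the pair in 989 of the 1267 (78.1%, 75.7 to 80.3), against 69.2% elsewhere, a difference of 8.87 points (6.15 to 11.5). The median of the width at ZT12 minus the width at ZT0 was -67.0 bp at starts (-71.0 to -62.0) and -40.0 bp elsewhere. Midpoints moved by a median of 31.0 bp at starts and 33.0 bp elsewhere. The best-scoring motif position was the same in 97.6% of pairs at starts and in 98.8% elsewhere. That position was counted whether or not it passed as a match, and 85.0% of shared ZT0 sites at starts had a match. Most pairs at starts thus held the same best-scoring position, and in most the listed ZT12 interval was shorter. Peak width depends on depth, which is not known for these lists, and its part in this was not tested.

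Base composition set the sites at starts apart from the rest of the lists. In 200 bp around the midpoint the median GC content was 60.5% at both time points, against 52.0% for sites elsewhere. The median ratio of observed to expected CpG dinucleotides was 0.635 at both time points, against 0.276 elsewhere at ZT0 and 0.275 at ZT12. A window of 1000 bp with GC over 50% and a CpG ratio over 0.6, called CpG-rich here, surrounded 49.5% of the sites at starts in either list. Elsewhere it surrounded 2.75% of ZT0 sites and 2.94% of ZT12 sites. The CpG ratio fell with distance, from a median of 0.791 up to 50 bp from the start to 0.384 between 750 and 1000 bp at ZT0.

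Among sites at starts, those in both lists were richer in GC and CpG than those in a single list. Median GC content at ZT0 was 61.5% in shared sites and 58.8% in ZT0-only sites, and the median CpG ratio 0.664 and 0.597. The share of sites above the median GC content of the set was 11.5 points higher among shared sites (7.01 to 15.9), and the share above its median CpG ratio 9.0 points higher (4.52 to 13.4). At ZT12 the shared sites had a median GC content of 61.5% and the ZT12-only sites 52.5%, with CpG ratios of 0.656 and 0.311. The same differences were 31.6 points for GC (22.3 to 38.8) and 33.7 points for CpG (24.6 to 40.6). Their size depended on the settings, with 17.9 and 17.1 points at ZT12 when an overlap of 50% of both sites was required, and 5.44 points for GC at ZT0 in windows of 1000 bp. The few ZT12-only sites thus resembled sites elsewhere in composition more than other sites at starts. They were also narrower, with a median of 260 bp against 312 bp, as ZT0-only sites were at 289 bp against 387 bp.

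A weight matrix of 19 bp for the CTCF motif was learned from the listed sites on odd chromosomes and used to score even ones, and the reverse, because the lists carry no motif direction. Both matrices grew from the word CAGGGGGC, which lay in 901 sites on odd chromosomes against 71 regions of the same width 5 kb away, and in 686 against 57 on even ones. A match was a score that 0.0001 of positions in those regions passed on either strand. The best-scoring words of the matrices are shown so that the matches printed further on can be read against them.
odd chromosomes: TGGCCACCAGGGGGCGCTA
even chromosomes: TGGCCACCAGGGGGCGCCA
The lists are labelled with FIMO, so sites may have been selected upstream for a motif. Motif frequency is therefore given as a description of the lists. A match lay in 80.3% of ZT0 sites at starts and in 91.8% of sites elsewhere, a difference of -11.5 points (-13.4 to -9.74). At ZT12 the shares were 83.5% and 92.0%, a difference of -8.50 points. Regions 5 kb from sites at starts held a match in 7.81% and 8.15% of cases. At a stricter score, passed by about 1% of those regions, 46.4% of ZT0 sites at starts and 65.8% elsewhere had a match. Sites at starts thus had fewer and weaker matches than sites elsewhere, and among ZT0 sites up to 50 bp from the start 41.2% passed the stricter score.

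Motif matches went with sharing at starts. At ZT0, 66.1% of the 1634 sites at starts with a match were shared, against 47.3% of the 402 without, a difference of 18.8 points (13.4 to 24.2). At ZT12 the shares were 93.2% and 89.4%, a difference of 3.78 points (0.0509 to 8.64). Sites without a match were narrower at ZT0, with a median of 322 bp against 360 bp, and had a higher median CpG ratio, 0.730 against 0.605.

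The motif pointed along the gene more often than against it. Of 1471 ZT0 sites with a match and starts on a single strand, the motif in the direction of its consensus lay on the strand of the gene in 859 (58.4%, 55.9 to 60.9). Of 1035 such ZT12 sites it did so in 635 (61.4%, 58.3 to 64.3). The lists share most of these sites, so the ZT12 value is no independent measurement. As a background, matches at the stricter score within 1 kb of a start that lay in no site of either list were on the gene's strand in 697 of 1390 cases, 50.1% (47.5 to 52.8).

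The direction depended on where the motif lay. Within 100 bp of the start it followed the gene in 357 of 486 ZT0 sites (73.5%, 69.4 to 77.2) and 282 of 367 ZT12 sites (76.8%, 72.3 to 80.9). Between 50 and 100 bp upstream the shares were 78.2% of 239 and 79.6% of 181. The first 50 bp downstream gave 54.3% of 46 (40.2 to 67.8) and 58.6% of 29 (40.7 to 74.5), so the pooled share rests mainly on upstream motifs. Farther than 100 bp upstream they were 57.5% and 58.1%. Farther than 100 bp downstream they were 40.7% (35.9 to 45.7) and 43.6% (37.5 to 49.9), so that the motif there lay more often against the gene. The share within 100 bp exceeded that of the downstream zone by 32.7 points at ZT0 (26.3 to 38.8) and by 33.3 points at ZT12 (25.5 to 40.6).

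Pooled within 100 bp of the start, the same measure was lower at unlisted matches. Of the stricter matches within 100 bp of a start, 72.9% of 295 that lay in a ZT0 site followed the gene, against 53.7% of 218 in no site, a difference of 19.2 points (10.8 to 27.4). For ZT12 the difference was 23.0 points (14.3 to 31.2). The first 50 bp downstream went the other way on few matches, with 72.3% of 47 unlisted ones along the gene (58.2 to 83.1). Against this stood 61.1% of 18 ZT0 sites (38.6 to 79.7), counted by the best match of each site and not by match as above. Farther upstream the differences were 2.80 points (-3.67 to 9.21) and 1.47 points (-5.68 to 8.55), and farther downstream -5.99 points (-13.4 to 1.61) and -4.59 points (-13.2 to 4.27), all with intervals that include zero. An excess of listed over unlisted matches along the gene was therefore resolved within 100 bp of the start, and not beyond, although listed sites farther upstream also lay along the gene more often than against it. By list, the motif followed the gene in 61.6% of 969 shared ZT0 sites and in 52.2% of 502 ZT0-only sites.

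The converse count took every autosomal match at the stricter score and asked whether a site covered it. Of the 29846 matches, 21.6% lay in a ZT0 site and 15.1% in a ZT12 site. Of the 2470 within 1 kb of a start, 972 lay in a ZT0 site (39.4%, 37.4 to 41.3) and 730 in a ZT12 site (29.6%, 27.8 to 31.4). Matches elsewhere lay in a site in 20% and 13.8% of cases, which gives differences of 19.3 points (17.4 to 21.3) and 15.8 points (14.0 to 17.6). The matrices were learned on other chromosomes than those scored, and both sets of chromosomes gave the same direction, with 35.4% against 17.5% on even chromosomes and 44.0% against 22.9% on odd ones at ZT0.

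Close to the start a strong match most often lay in a listed site. At ZT0 the share was 53.2% of 267 matches up to 50 bp away (47.2 to 59.1), 59.5% of 331 between 50 and 100 bp (54.1 to 64.7), 38.9% between 100 and 250 bp, 35.9% between 250 and 500 bp and 30.4% of 932 between 500 and 1000 bp. At ZT12 the same zones gave 43.1%, 49.5%, 31.1%, 26.6% and 19.5%. In CpG-rich windows near starts 65.9% of 613 matches lay in a ZT0 site, against 30.6% of 1857 in other windows. The ZT12 shares were 56.3% and 20.7%. So sites at starts had weaker motifs on average, yet a strong motif near a start was more often listed than one elsewhere.

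Of 21418 autosomal protein-coding genes, 1886 (8.81%) had a ZT0 site at a start and 1269 (5.92%) had a ZT12 site at a start. Either list gave 1967 genes, of which 1188 (60.4%) were in both lists, 698 (35.5%) at ZT0 only and 81 (4.12%) at ZT12 only. Among all genes, protein-coding or not, 2116 had 1 ZT0 site at their starts, 82 had 2 and 2 had 3. A CpG-rich first start was found in 45.1% of protein-coding genes and in 65.6% of those with a ZT0 site. A ZT0 site lay at 12.8% of the genes with a CpG-rich first start and at 5.51% of the others, and a ZT12 site at 8.55% and 3.77%. Genes with CpG-rich starts thus had a site more than other genes, by a similar factor at both time points.

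Short sequence words were counted on both strands in promoters of 300 bp, from 250 bp before to 50 bp after the first start. The GC box GGGCGG lay in 43.7% of all 21418 promoters and in 63.1% of the 1461 with a ZT0 site at the first start. Within CpG-rich promoters the shares were 72.9% and 73.4%, and within the others 19.8% and 37.5%. The TATA box TATAAA lay in 13.5% of all promoters and in 6.78% of those with a ZT0 site. In CpG-rich promoters that was 5.55% and 6.14%, and in the others 20% and 8.35% (6.07 to 11.4). Composition at the start thus went along with most of these differences in CpG-rich promoters, while promoters that were not CpG-rich differed within their class.

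The CCAAT box CCAAT lay in 37.6% of all promoters, 33.1% of those with a ZT0 site and 31.3% of those with a ZT12 site. The clock protein target CACGTG, an E-box, lay in 7.78% of all promoters, 8.69% of those with a ZT0 site and 7.92% of those with a ZT12 site. The D-box TTATGTAA lay in 0.934%, 0.479% and 0.508%. The ETS core CCGGAAGT lay in 4.76%, 7.32% and 7.72%, although in CpG-rich promoters it was 8.56% of all and 8.73% of those with a ZT0 site. The YY1 core ATGGCGGC lay in 2.77%, 4.04% and 3.35%, the NRF1 core GCATGCGC in 3.35%, 4.04% and 3.55%, the HNF4A core CAAAGTCC in 1.47%, 1.16% and 1.52%, and the AP-1 word TGACTCA in 4.40%, 2.81% and 3.35%. Within CpG-rich promoters YY1 gave 5.18%, 4.70% (3.58 to 6.16) and 3.86% (2.67 to 5.56), and NRF1 gave 6.04%, 4.89% (3.74 to 6.38) and 4.15% (2.90 to 5.89). The E-box gave 11.2%, 9.31% (7.69 to 11.2) and 9.01% (7.11 to 11.4) there. These values lie below the share of all CpG-rich promoters, and most of their intervals reach it, so the excess over all promoters was not seen within that class. In promoters that were not CpG-rich an excess was present for YY1 and ETS at both time points. YY1 lay in 2.39% (1.30 to 4.34) at ZT0 and 2.10% (0.965 to 4.50) at ZT12, against 0.799%. ETS lay in 3.82% (2.36 to 6.11) at ZT0 and 4.90% (2.94 to 8.05) at ZT12, against 1.65%. The E-box lay in 7.16% (5.06 to 10.0) at ZT0 and 5.24% (3.20 to 8.47) at ZT12, against 5.01%. Its ZT0 interval lies just above that share and its ZT12 interval includes it. CCAAT stayed lower within CpG-rich promoters, with 37.2% of all, 32.1% (29.3 to 34.9) at ZT0 and 30.8% (27.4 to 34.3) at ZT12. In the other promoters it lay in 37.9%, 35.6% (31.1 to 40.3) and 32.5% (27.4 to 38.1). Both of those intervals include the share of all such promoters. Over all promoters, the E-box interval at ZT0 was 7.35 to 10.2, which includes the share of all promoters. A word is a description of the sequence, not of a bound factor.

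The genes of the cohesin machinery and of CTCF's partners had sites at their own starts in 7 of 18 cases at ZT0 (38.9%, 20.3 to 61.4) and in 6 of 18 at ZT12 (33.3%), beside 8.81% and 5.92% of all protein-coding genes. CpG-rich first starts were found in 88.9% of them. The widest site was at Stag1, a subunit of the cohesin ring, at chr9:100543726-100544264, with 539 bp at ZT0 and 482 bp at ZT12 and a strong motif 4 bp from the start. Stag1 had a further, ZT0-only site of 244 bp upstream. The gene of CTCF itself had a shared site at chr8:108160479-108160943, 465 bp wide at ZT0 and 478 bp at ZT12. Adnp, which encodes a zinc finger protein that competes with CTCF for sites, had a ZT0-only site of 435 bp at chr2:168032763-168033197. Esco1, a cohesin acetyltransferase, had a shared site of 395 bp at ZT0 and 391 bp at ZT12. Pds5b, a regulator of cohesin release, Pds5a and Smc3 made up the 7. All of these but the Adnp site and the further Stag1 site were thus shared.

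Transcription factors of the hepatocyte, beside 8.81% and 5.92% of all protein-coding genes, had sites at the starts of 8 of 32 genes at ZT0 (25%, 13.3 to 42.1) and 6 at ZT12 (18.8%, 8.89 to 35.3), and 53.1% of them had a CpG-rich first start. Nr1h3, the oxysterol receptor LXR alpha, had a shared site at chr2:91034723-91035058 of 336 bp at ZT0 and 470 bp at ZT12, which made it one of the minority that were wider at ZT12. Cebpb and Cebpa encode leucine zipper activators of liver genes. The Cebpb site at chr2:167514014-167514549 measured 536 bp at ZT0 and 219 bp at ZT12, and the Cebpa site at chr7:35904062-35904473 measured 412 bp and 234 bp. Xbp1, a factor of the unfolded protein response, had a site of 408 bp and 276 bp in an intron, without a motif match. These widths show that a shared site can be listed with an interval much shorter at ZT12.

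Families expressed in particular cell types were counted next, against 8.81% of all protein-coding genes at ZT0 and 5.92% at ZT12. Of 50 plasma protein genes only Apob, the protein of very low density lipoprotein, had a site, a ZT0-only one of 252 bp at chr12:7985423-7985674 in an intron (2.0%, 0.354 to 10.5). No plasma protein gene had a ZT12 site, with an upper Wilson bound of 7.13%. CpG-rich first starts were found in 3.92% of the 51 annotated genes of these names. Cytochrome P450 genes had 4 of 98 at ZT0 (1.60 to 10.0%) and 2 at ZT12 (0.561 to 7.14%), with 9.18% CpG-rich. These were Cyp1b1 (448 bp and 318 bp), Cyp2b10 (296 bp and 227 bp), and the ZT0-only sites at Cyp2b19 (391 bp) and Cyp24a1 (117 bp, the narrowest ZT0 site of the set). Of 1426 olfactory and vomeronasal receptor genes, none had a ZT0 site, with an upper bound of 0.269%, and only Olfr9 had a ZT12 site, of 205 bp in a coding exon. Only the receptor family had intervals wholly below the shares of all genes, and the plasma protein and P450 intervals include them.

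Glucose metabolism had 3 of 36 genes at ZT0 (8.33%, 2.87 to 21.8) and 2 at ZT12 (5.56%, 1.54 to 18.1), close to the shares of all genes. Pfkfb3, which makes the activator of phosphofructokinase, had a pair of shared sites of 392 bp and 368 bp at ZT0. Eno1, the glycolytic enolase, had a shared site of 438 bp at ZT0 and 204 bp at ZT12, and Ppp1r3b, a glycogen-targeting phosphatase subunit, a ZT0-only site of 292 bp. Cholesterol and bile acid metabolism had 5 of 34 (14.7%, 6.45 to 30.1) and 4 of 34 (11.8%, 4.67 to 26.6), with intervals that include those shares. Scap, which escorts the factor SREBP, had a shared site of 309 bp at ZT0 and 430 bp at ZT12 across its start. Npc1, the lysosomal cholesterol exporter, had a shared site of 429 bp and 340 bp and a ZT12-only site of 354 bp. Tm7sf2, a sterol reductase, had a shared site of 383 bp and 208 bp, and Dhcr7, the last reductase of the pathway, a ZT0-only site of 241 bp.

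Among housekeeping families, whose differences from each other were not tested, ribosomal protein genes had sites at 15 of 79 (19%, 11.9 to 29.0) at ZT0 and 11 of 79 (13.9%, 7.96 to 23.2) at ZT12, beside 8.81% and 5.92% of all protein-coding genes, with 88.6% CpG-rich first starts. The widest was a ZT0-only site of 644 bp at Rpl38, and other wide sites were the shared ones at Rps3a (448 bp and 381 bp) and Rpl5 (418 bp and 409 bp). Proteasome subunit genes had 4 of 38 (10.5%, 4.17 to 24.1) and 2 of 38 (5.26%, 1.46 to 17.3), near those shares. These were Psmc6 (658 bp, ZT0-only), Psmd6 (399 bp and 422 bp), Psmd11 (341 bp, ZT0-only) and Psmc4 (280 bp and 240 bp). Of 67 replication-dependent histone genes, 73.1% with a CpG-rich first start, Hist3h2a had a ZT0-only site of 356 bp in its coding exon and Hist1h4j a shared site of 259 bp and 243 bp. Those 2 genes are 2.99% of the family (0.822 to 10.2), an interval that includes the share of all genes. Zfp zinc finger genes had 24 of 333 at ZT0 (7.21%) and 12 at ZT12 (3.60%), below the shares of all genes but with intervals that include them, and the widest by mean over the lists that hold the site were at Zfp384 (488 bp and 562 bp), Zfp341 (471 bp and 416 bp), Zfp644 (434 bp, ZT0-only) and Zfp398 (403 bp and 392 bp).

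Developmental and imprinted loci, known for CTCF boundaries, had intervals that include the shares of all genes when only starts were counted. Hox genes had 4 of 39 (10.3%, 4.06 to 23.6) and 3 of 39 (7.69%, 2.65 to 20.3). Hoxa7 had a shared site of 525 bp at ZT0 and 458 bp at ZT12 at chr6:52171549-52172073, Hoxa10 a shared site of 417 bp and 249 bp, Hoxb5 a shared site of 268 bp and 226 bp, and Hoxa5 a ZT0-only site of 334 bp. Of 24 clustered protocadherin genes, which encode adhesion proteins of neurons, only Pcdhgc5 had a site (4.17%, 0.739 to 20.2), shared, of 287 bp and 265 bp. Imprinted genes had 5 of 53 (9.43%, 4.10 to 20.3) and 3 of 53. They were Meg3, a maternally expressed non-coding RNA with a shared site of 312 bp and 329 bp and a ZT0-only site of 313 bp, Commd1 (317 bp, ZT0-only), H13 (333 bp and 260 bp), Grb10 (268 bp, ZT0-only) and Blcap (260 bp and 212 bp).

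Of 13 core clock genes, 84.6% with a CpG-rich first start, only Npas2 had a site at a start. That is 7.69% at ZT0 (1.37 to 33.3), near the 8.81% of all protein-coding genes. Npas2 encodes a partner of BMAL1 and had a pair of ZT0-only sites, of 246 bp at chr1:39249665-39249910 and 215 bp at chr1:39397594-39397808, 789 bp and 699 bp upstream of separate starts. No core clock gene had a ZT12 site, and with 13 genes the upper Wilson bound is 22.8%. Clock output genes and clock modifiers, 77.8% with a CpG-rich first start, had 3 of 18 at ZT0 (16.7%, 5.84 to 39.2). At ZT12 they had 2 of 18 (11.1%, 3.10 to 32.8). Both intervals include the shares of all protein-coding genes, 8.81% at ZT0 and 5.92% at ZT12. Usp2, a deubiquitinase, had a shared site of 405 bp and 293 bp at its start, Bhlhe40, a repressor that binds E-boxes, a shared site of 321 bp and 302 bp in an intron, and Timeless a ZT0-only site of 237 bp.

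The study lists genes whose RNA is rhythmic in these livers, and only the names were used here. Of 1230 such genes matched on autosomes, 150 (12.2%, 10.5 to 14.1) had a ZT0 site at a start and 107 (8.70%, 7.25 to 10.4) a ZT12 site, beside 8.81% and 5.92% of all protein-coding genes. CpG-rich first starts were found in 829 of the 1182 protein-coding ones (70.1%), against 45.1% of all, and the part of this in the shares was not tested. In both lists were 101 of these genes, 49 had a site at ZT0 only and 6 at ZT12 only, beside 60.4%, 35.5% and 4.12% of all protein-coding genes with a site in either list. The widest ZT0-only sites were at Phf17 (433 bp), Crbn (432 bp), a substrate receptor of an E3 ubiquitin ligase, Cacybp (404 bp), 4930523C07Rik (397 bp) and Pitx3 (352 bp), a homeodomain factor. Sites that were themselves ZT12-only lay at Klhl24 (281 bp), Avpr1a (263 bp), a vasopressin receptor, B230120H23Rik (222 bp) and Arhgef10l (207 bp).

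Small RNA and antigen receptor genes that exist in many related copies formed a group of their own, and positions of reads among similar copies are less certain. SNORA17, a small nucleolar RNA, has 578 annotated copies, and 17 ZT0 sites and 16 ZT12 sites lay nearest to one, with 9 shared in each list, beside 62.4% of all ZT0 sites at starts and 92.6% of those at ZT12. All 17 and all 16 had a motif match, each on the strand of the copy, and 15 and 13 of the midpoints lay between 0 and 150 bp downstream of its start. Most of the matches lay 53 bp downstream of the start of the copy, and a shared site between genes had its match 713 bp away. The most frequent matches, from 4, 3 and 2 ZT0 sites, are printed in capitals on the strand of the motif.
SNORA17 match in 4 sites: GTGCCAGTAGGTGGCAGAG
SNORA17 match in 3 sites: GTGTCAGTAGGTGGCAGAG
SNORA17 match in 2 sites: ACACCAGTAGGTGGCAGAC
Variable segments of immunoglobulin and T cell receptor genes have 355 annotated copies, with 8 ZT0 sites and 3 ZT12 sites and no overlap between the lists. At ZT0 the interval for 0 of 8 shared reaches 32.4%, beside 62.4% of all sites at starts. All 8 ZT0 sites and 2 of the 3 ZT12 sites had a match, each on the strand of the segment. The small nuclear RNA U6, with 871 copies, had 5 sites in each list, 4 of them shared, and only 1 of the 4 matches in each list lay on its strand.

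The widest shared sites at protein-coding genes, by mean width over both lists, had midpoints between 74 bp and 434 bp from the start. Gm962 had the widest, chr19:5567396-5569154, with 1759 bp at ZT0, and it overlapped a pair of ZT12 sites of 274 bp and 937 bp. Trp53i11, induced by the tumour suppressor p53, had chr2:93038991-93039999 with 1009 bp at ZT0 and 926 bp at ZT12. Pvrl2, the adhesion molecule nectin 2, had chr7:20334879-20335834 with 956 bp and 800 bp. Mus81, a nuclease that resolves DNA junctions, had chr19:5487782-5488600 with 819 bp and 674 bp. Kdm3b, a histone demethylase, had 951 bp and 617 bp, with a weak match of 7.42 bits against the gene that is not printed. Each other match stands in capitals on the strand of the motif in mm9, with 5 flanking bases in lower case.
Gm962: ctttaCGGCCACTAGAGGGCGCCCaggtc
Trp53i11: agcaaTGGCCACAAGGTGGCAGCAcagac
Pvrl2: tagagTGACCAGTAGGGGGCGCAGtgggt
Mus81: cgaggCAGCCAGCAGGGGGCGCCAcacgc
These matches lay at chr19:5568366-5568384 on the minus strand, chr2:93039201-93039219 on the minus strand, chr7:20335076-20335094 on the minus strand and chr19:5488010-5488028 on the minus strand. The matches at Gm962 and Trp53i11 faced against the gene, and those at Pvrl2 and Mus81 along it. These 4 passed the stricter score and the match at Kdm3b did not.

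The shared sites with the highest motif scores, in bits, were between 368 bp and 566 bp wide at ZT0. Hsd3b7, an enzyme of bile acid synthesis, had 27.6, in a site of 368 bp at ZT0 and 330 bp at ZT12 at chr7:134943807-134944174. Reps1, a protein of endocytosis, had 26.9 at chr10:17775004-17775405, and Lsm11, a subunit of the particle that processes histone messages, had 26.8 at chr11:45758226-45758791. Hsd17b14, a steroid dehydrogenase, had 26.6 at chr7:52811163-52811574, and Agfg1 had 26.5 at chr1:82835651-82836159. Capitals again mark the match on its own strand, with 5 bases on each side.
Hsd3b7: tggacTGGCCACCAGGGGGCACTCtggca
Reps1: ggctcCGGCCAGCAGGGGGCGCTGcggcc
Lsm11: agccgCGGCCACCAGGGGGCAGCAtagat
Hsd17b14: ggtggTGGCCAGCAGAGGGCACCAgagat
Agfg1: cctccCGGCCAGCAGAGGGCGCCAgcctg
The matches lay on the plus strand at chr7:134944019-134944037, chr10:17775244-17775262, chr11:45758526-45758544, chr7:52811352-52811370 and chr1:82835950-82835968. All 5 lay upstream of the start, and 4 of them within 100 bp of it. Lsm11 is on the minus strand, so its motif alone faced against the gene.

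The widest ZT0-only sites at protein-coding genes were between 814 bp and 973 bp wide. Zmym2, a zinc finger corepressor subunit, had 973 bp at chr14:57506117-57507089, and Gna14, a G protein subunit, 950 bp at chr19:16509366-16510315. Gmfg had 868 bp at chr7:29221477-29222344. Chek2, a kinase of the DNA damage response, had 828 bp at chr5:111269004-111269831, and Pts, an enzyme of tetrahydrobiopterin synthesis, 814 bp at chr9:50336240-50337053. The matches are printed in capitals with 5 bases on each side, each on its own strand.
Zmym2: actctGTAACTCTAGAGGGCACCAgaaat
Gna14: gaaacTTTCCAGTAGGGGACACTGttgtc
Gmfg: cctacGGACCCGCAGGGGGCAGTCtcgcg
Chek2: cacggGGGCCAATAGAGGGCATTGtatca
Pts: aagacTGAACAGCAGGGGGCGCTAgtgtt
In mm9 these are chr14:57507000-57507018 on the minus strand, chr19:16509471-16509489, chr7:29221676-29221694 and chr5:111269738-111269756 on the plus strand, and chr9:50336905-50336923 on the minus strand. Their scores were 13.2, 12.5, 15.4, 10.7 and 22.2 bits, in the order printed.

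The widest ZT12-only sites were between 346 bp and 429 bp wide. C030046E11Rik had the widest, 429 bp at chr19:29671388-29671816, and Pdlim7 had 406 bp at chr13:55614787-55615192, both without a match. Fam65c had 425 bp at chr2:167835276-167835700 in an intron, and Scpep1, a serine carboxypeptidase, had 346 bp at chr11:88816643-88816988 with its midpoint 36 bp from the start. The site of 354 bp at Npc1 was the other of the 5 widest. A match is shown, in capitals on its own strand with 5 flanking bases, for Fam65c and Scpep1.
Fam65c: tgggcCGGCCAGGAGGGGGCGCTGctggt
Scpep1: gggtcCGACCGGCAGAGGGAGCGCggaat
In mm9 they lie on the minus strand at chr2:167835614-167835632 and chr11:88816809-88816827, and both follow the direction of the gene.

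The genes with the most sites at their starts had them in introns or at separate internal starts. Idh1, the cytosolic isocitrate dehydrogenase, had 3 ZT0 sites of 299 bp, 274 bp and 286 bp between chr1:65224839 and chr1:65226747, of which the first and the second were shared with ZT12 sites of 243 bp and 275 bp. Plec, which encodes the cytoskeletal linker plectin, had 3 ZT0-only sites of 344 bp, 320 bp and 339 bp at separate starts on chromosome 15, each with its motif against the gene. The next was 3110057O12Rik with 2 shared sites, taken from many genes with the same number.

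Promoter sequence is shown for 4 genes, from 20 bases before the motif to the annotated start, on the strand of the gene. Hsd3b7 and Lsm11 had the highest-scoring motifs along and against the gene among those named, while Ctcf and Cebpa were chosen after their values were seen. Capitals mark the match, which at Lsm11 is printed as the reverse complement of the motif. The regions in mm9 are chr7:134943999-134944118 on the plus strand, chr11:45758437-45758564 on the minus strand, chr8:108160636-108160835 on the plus strand and chr7:35904233-35904312 on the plus strand.
Hsd3b7 promoter: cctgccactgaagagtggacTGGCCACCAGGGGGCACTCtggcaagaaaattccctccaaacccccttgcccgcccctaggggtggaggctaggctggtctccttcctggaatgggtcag
Lsm11 promoter: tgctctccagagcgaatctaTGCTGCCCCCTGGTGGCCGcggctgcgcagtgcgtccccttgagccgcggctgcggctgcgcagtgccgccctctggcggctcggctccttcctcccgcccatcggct
Ctcf promoter: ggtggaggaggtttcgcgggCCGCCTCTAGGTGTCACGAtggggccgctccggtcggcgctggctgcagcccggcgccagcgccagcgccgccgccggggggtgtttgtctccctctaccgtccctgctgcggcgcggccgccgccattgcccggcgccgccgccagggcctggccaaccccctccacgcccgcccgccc
Cebpa promoter: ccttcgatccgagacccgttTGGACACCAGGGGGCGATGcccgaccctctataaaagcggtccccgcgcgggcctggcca
The motif lay 90 bp from the start at Hsd3b7, 98 bp at Lsm11, 170 bp at Ctcf and 50 bp at Cebpa. The Ctcf match scored 10.7 bits, below the stricter score, and that at Cebpa 20.3 bits. No base of these stretches before the start lies in an annotated exon. All 4 sites were in both lists.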

How the data were processed

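CTCF ChIP-seq was measured in 4 liver samples, 2 replicates at each of 2 time points. The authors mapped reads to NCBIM37 (mm9) with Bowtie2, filtered them with SAMtools at mapping quality 30 and with Picard for duplicates, and ran MACS2 for peaks. Deposited were 2 lists of peak positions in bases per the labels, with other values absent and no depth. How the replicates were combined is not stated.

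Sites were joined to autosomal GENCODE starts with Python 3.11.15, NumPy 2.4.6, SciPy 1.17.1 and pysam 0.24.0. Shares carry Wilson intervals, differences Newcombe intervals and differences within classes Mantel-Haenszel intervals, all at 95%. No test over samples was possible, since the replicates are pooled. Counting, overlap and motif steps were tested on simulated data. Sites on chromosome X were not used.

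Genes were named by rule: up to 4 per gene list by width, the 5 widest and the 5 highest-scoring shared sites, the 5 widest sites of either single list, the 3 genes with most sites, the 3 sites nearest to 1 kb on each side, and up to 5 rhythmic genes per single list, with withheld genes not reported here. The members and lists were chosen with earlier results of these data known. Alternatives were other windows, starts, overlaps, widths, motif scores and adjustments.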

Additional observations from a re-analysis of the deposited data

Results flagged for a closer look

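Peaks on chromosome X were outside every comparison, because the set was limited to autosomes. The lists nevertheless hold 75 ZT0 sites and 43 ZT12 sites there, of which 24 at ZT0 and 9 at ZT12 lie within 1 kb of an annotated start. They are set apart as a signal in data that the comparisons do not use. All the animals were male.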

How the results depend on the processing

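Of 86 alternatives to the values above, 69 kept the result: a difference or motif direction its sign with an interval on the same side, a shared percentage its place within the main interval, a count within 1.5 times. Sizes of differences moved, in part beyond the main interval. The ZT12 difference between sites at starts and elsewhere stayed positive in 13 of 13, from 2.08 to 23.1 points. Its largest values, 23.1 and 21.4, required a ZT0 partner that passed a width filter, which ZT0 sites at starts passed more often than others. The share of motifs along the gene ran from 55.2% to 62.8% at ZT0 and from 57.2% to 66.4% at ZT12, in 7 of 7 each. The GC and CpG differences between shared and single-list sites stayed positive in 6 of 6 at each time point, but their size moved. At ZT0, 1000 bp around the midpoint gave 5.44 points for GC and 7.12 for CpG. At ZT12, an overlap of 50% of both sites gave 17.9 and 17.1.

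The ZT0 difference was lost within width classes (-0.0873 points, -2.29 to 2.12) and within GC classes (-0.264, -2.92 to 2.39), and turned negative within both (-2.75, -5.18 to -0.322), the last chosen after seeing the data. The cause was not tested.

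With a 500 bp window the shared percentage was 64.7% at ZT0 and 94.2% at ZT12, and 6.75% and 4.65% of genes had a site. With 2 kb, 90.9% of ZT12 sites were shared and 11.4% and 7.83% of genes had a site. Protein-coding starts alone gave 94.2% at ZT12. An overlap of 50% of both sites gave 59.8% and 88.7%. Sites wider than the median in either list gave 52.3% and 84.5%, and a ZT0 list reduced to its widest sites, as many as at ZT12, gave 72.9% and 84.1%. The cause was not tested.

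Leaving out sites nearest to a SNORA17 copy or a variable segment, chosen after seeing the data, gave 62.7% and 93.2%. No paired analysis was possible because each list pools its replicates. Leaving out a replicate and a stricter peak score were not run, since the lists hold neither.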
